A study of Saccharomyces cerevisiae BY4741 with 12 samples.

Results

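The 33 open reading frames examined here encode the TYA-TYB polyproteins of the Ty1 and Ty2 retrotransposons of Saccharomyces cerevisiae. They were taken by their systematic names from a deposited table of expression levels, in which all 33 were present among 6632 annotated rows. In the RefSeq annotation of the R64 genome, 30 of them lie in Ty1 elements and 3, YBL100W-B, YCL019W and YDR034C-D, lie in Ty2 elements. The names, and no threshold on a measured value, define the set, although it was picked with earlier results of these data known. They are copies of one another, so they were described mainly as families, and no copy was treated as a replicate of another.

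Strand-specific sequencing of polyadenylated RNA was used to compare 4 strains of the BY4741 background, none of which received a treatment. The WT is labelled wild type, and no plasmid is named for it. In set2Δ, SET2, which encodes the only methyltransferase of histone H3 lysine 36 (H3K36) in this yeast, is deleted and the cells hold the empty vector pRS415 with a leucine marker. The set2-Y149F and set2-Y236F strains are the same deletion with the mutant gene on pRS415. In the study's own blots, set2-Y149F lost dimethylation, had less monomethylation and kept trimethylation of H3K36, whereas set2-Y236F lost trimethylation and kept the lower states. No strain with the wild-type gene on the plasmid is described. LEU2, the marker of the vector, is deleted in the BY4741 background. It nevertheless had 3209 FPKM in the WT, below set2Δ (6023 FPKM) and above the point mutants set2-Y149F (1775 FPKM) and set2-Y236F (1889.9 FPKM). Whether the WT held a vector is not stated, and the part of the plasmid in the comparisons with the WT was not tested. All 3 mutants share the vector. Growth was at 30 °C, and cells were taken when the OD600 had reached 0.8. The study calls the medium of the sequenced cells rich in nutrients, while the labels name both YPD and SD and do not tie either to a strain.

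Each strain was labelled with 3 libraries, but the table holds 1 mean FPKM per strain, a count of fragments scaled to the length of the gene and the size of the library. No SD, test or depth per library can be given, and every difference described here is a difference between strain means. Levels of a gene are given in the fixed order WT, set2Δ, set2-Y149F, set2-Y236F where 4 values follow each other. For SET2 they were 29.1, 0.190, 253 and 271 FPKM. SET2 was thus near 0 in the deletion, and the strains with a mutant gene on the plasmid held more SET2 RNA than the WT.

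Ty1 and Ty2 are the most common retrotransposons of this yeast. An element is flanked by long terminal repeats (LTRs), and its RNA starts inside the LTR at its 5′ end, where the promoter lies. TYA encodes Gag, the protein that forms the shell of the virus-like particle. TYB encodes Pol, which is cut into protease, integrase and reverse transcriptase. Pol is made only when the ribosome slips forward by a base at the end of TYA, so the long reading frames examined here are joined across this slip. The initiator methionine tRNA primes reverse transcription, and new copies insert mostly upstream of genes that RNA polymerase III transcribes, such as tRNA genes. The filamentation factors Ste12 and Tec1 are known activators of Ty1.

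The annotated reading frames, taken from the RefSeq R64 genome (sacCer3), lay on 13 chromosomes, with 17 on the plus and 16 on the minus strand. A common length of 5269 bp was found in 24 of them. YAR009C on chrI:160597-164187, minus strand, is annotated as truncated and had 3591 bp, and YDR261C-D had 4816 bp. The heptamer at which the ribosome slips was found in 32 of the 33, in all but YAR009C, and stood at base 1303 of the reading frame in 28. The 49 bases around it came in 5 versions among the Ty1 copies and in 1 version among the Ty2 copies. The most common version was shared by 14 Ty1 copies, a further version by 10. They are printed with the heptamer in capitals, because they join TYA to TYB in each copy.
YBR012W-B, 14 Ty1 copies, chrII:261150-261198, plus strand: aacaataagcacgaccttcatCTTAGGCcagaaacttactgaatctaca
YDR365W-B, 10 Ty1 copies, chrIV:1208278-1208326, plus strand: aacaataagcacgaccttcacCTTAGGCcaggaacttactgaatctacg
YBL100W-B, 3 Ty2 copies, chrII:31204-31252, plus strand: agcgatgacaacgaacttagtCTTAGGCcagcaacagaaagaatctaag

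The primer site shows what the families share. All 33 elements held the 10 bases that pair with the 3′ end of the initiator tRNA, once each, and in 32 the site began at base 42 of the reading frame. The tRNA gene IMT4 is printed with its last bases in capitals, and the site is the reverse complement of these bases with the added CCA end.
IMT4, chrV:100133-100204, plus strand: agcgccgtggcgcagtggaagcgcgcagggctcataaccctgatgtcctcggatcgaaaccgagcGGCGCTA
Primer site in the elements: TGGTAGCGCC

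The LTR stretches differed between copies at the letters searched for. In each window from 250 bases before to 50 bases after the start of a reading frame, the letters TATAAA (a core promoter element), TGAAACA (bound by Ste12), CATTCC (bound by Tec1) and TGACTC (bound by Gcn4) were looked for on both strands. YAR009C, whose reading frame starts inside the element, was left out. TATAAA stood in 29 of 29 Ty1 and 3 of 3 Ty2 windows, against 45.4% of the windows of all 6020 genes. TGAAACA stood in 8 of 29 Ty1 windows and in no Ty2 window, against 7.48% of all windows, and in all 8 it stood directly before TATAAA without an overlap. CATTCC stood in 20 Ty1 windows and in no Ty2 window, against 10.9% of all windows, and TGACTC in no window of either family, against 7.96%. Each stretch of 160 bases that follows begins 250 bases before the reading frame, with the matches in capitals (TATAAA is read as TTTATA on the other strand). A match is a description of letters and not a bound site. YOR142W-B is 1 of the 8 copies with TGAAACA, YPL257W-B has CATTCC (read on the other strand as GGAATG) but not TGAAACA, YDR365W-B has neither, and YCL019W is a Ty2 copy.
YOR142W-B, chrXV:594862-595021, plus strand: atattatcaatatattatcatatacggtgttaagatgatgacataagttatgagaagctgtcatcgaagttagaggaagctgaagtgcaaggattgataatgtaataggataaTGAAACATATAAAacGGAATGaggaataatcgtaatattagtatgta
YPL257W-B, chrXVI:56498-56657, plus strand: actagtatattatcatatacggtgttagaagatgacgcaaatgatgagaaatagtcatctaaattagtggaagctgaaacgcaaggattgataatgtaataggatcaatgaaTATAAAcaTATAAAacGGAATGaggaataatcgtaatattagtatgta
YDR365W-B, chrIV:1206747-1206906, plus strand: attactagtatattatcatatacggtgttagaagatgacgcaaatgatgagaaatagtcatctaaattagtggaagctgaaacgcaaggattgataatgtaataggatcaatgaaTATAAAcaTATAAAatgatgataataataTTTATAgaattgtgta
YCL019W, chrIII:84852-85011, plus strand: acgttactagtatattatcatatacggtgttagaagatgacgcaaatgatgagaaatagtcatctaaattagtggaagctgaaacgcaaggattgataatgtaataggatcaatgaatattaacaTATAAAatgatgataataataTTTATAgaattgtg

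The copies are so alike that few reads of 75 bases, the read length of the study, could be placed in a single copy. Every 75-base window of each reading frame was counted in the reference genome. The share of windows found once had a median of 1.44% over the 33 copies. It was 0 in 8 copies and under 1% in 12. Only 5 copies reached 10%, namely YBL100W-B at 23.0%, YNL284C-B at 19.3%, YNL054W-B at 16.9%, YMR045C at 13.1% and YBL005W-B at 10.7%. Among the other 5856 protein-coding rows the median share was 100%, and 94.4% of them had every window once. The identity between the 28 whole Ty1 reading frames ranged from 91.9% to 99.98%, with a median of 97.1% over 378 pairs. The 3 Ty2 frames were 98.8% to 99.2% identical to each other and 74.6% to 77.8% identical to the whole Ty1 frames. Between 12.3% and 15.9% of the windows of a Ty2 frame also stood in a Ty1 element.

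No source used here says how the authors' pipeline shared reads among matching places. Levels of alike copies were near each other but not equal. YLR157C-B and YPL257W-B differ at 1 base, and their levels were 371 and 363 FPKM in the WT. Over the 4 strains this pair was 1.01% to 2.75% apart. YER138C and YML039W differ at 3 bases and were 3.02% to 3.96% apart. YDR316W-B and YPR158W-B differ at 6 bases and were 0.0192% to 0.461% apart, and YER138C and YPL257W-B, at 8 bases, were 6.64% to 9.18% apart. With so few windows found once, levels of single copies are not treated as separate measurements. The BY4741 cells may hold other copies than the reference genome, which was not tested.

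Ty1 RNA was abundant and Ty2 RNA several times lower. In the WT, the lowest, median and highest of the 30 Ty1 levels were 198, 299.9 and 442 FPKM. In set2Δ they were 275, 402 and 563 FPKM. The set2-Y149F values were 229, 357 and 528 FPKM, and those of set2-Y236F were 213, 327 and 495 FPKM. The Ty1 copies stood between the 87.7th and the 95.8th percentile of all annotated rows over the 4 strains, and the Ty2 copies between the 64.0th and the 74.3rd. Levels per kilobase multiplied by the length of each frame add up to the fragments assigned to the family. This sum is a share of the library only if each read was counted once in total, which is not known. The 33 frames took 4.85%, 6.45%, 5.77% and 5.38% of the library on this scale in the 4 strains. A larger share of polyadenylated RNA was thus assigned to these 33 frames in each mutant than in the WT. The same sum over all annotated rows with a RefSeq length came to 97.5% to 101% of a library, so that shares are approximate. Whether a cell held more Ty RNA or less of other RNA cannot be told apart in such shares.

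**Figure D1:**
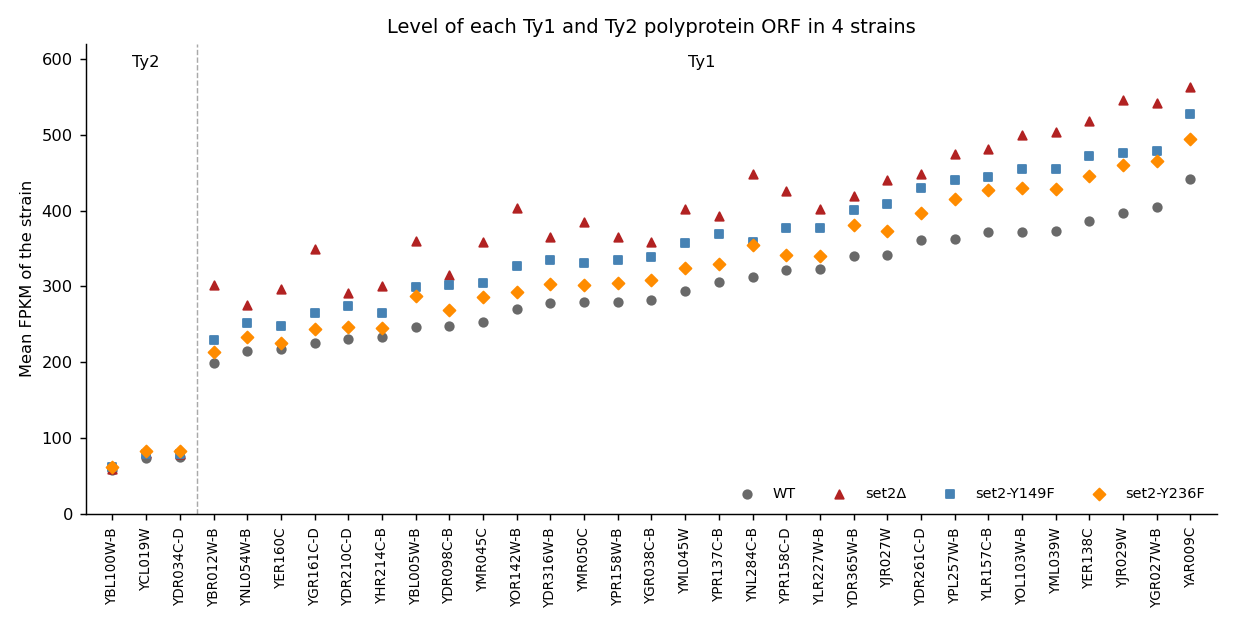
Mean FPKM (linear axis from 0) of each of the 33 reading frames, 1 point per strain, ordered by the WT level within Ty2 and Ty1. The 3 Ty2 copies lie between 57.1 and 82.2 FPKM in all strains, and in all 30 Ty1 copies the points stand in the order WT, set2-Y236F, set2-Y149F, set2Δ from low to high.

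The highest copy in all 4 strains was YAR009C, the truncated frame, which starts past the end of TYA. Its levels were 442, 563, 528 and 495 FPKM. Among whole frames, YGR027W-B was highest in the WT, with 405, 542, 479 and 465 FPKM. The lowest Ty1 copy in the WT was YBR012W-B on chromosome II, with 198, 301, 229 and 213 FPKM. YNL054W-B, a Ty1 copy with 16.9% of its windows found once, had 215, 275, 251 and 234 FPKM. In these 4 copies the WT was the lowest strain and set2Δ the highest.

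The loss of Set2 was compared with the WT first. All 33 frames were higher in set2Δ than in the WT, whereas 40.2% of all annotated rows were higher. None reached a 2-fold difference on the scale of log2(FPKM + 1), a limit passed by 2.88% of all rows upward and 1.19% downward. The Ty1 copies differed by a median of 0.40 on this log2 scale, from 0.30 to 0.63, and the Ty2 copies by a median of 0.08, from 0.03 to 0.14. The median of all annotated rows was -0.07, and 90% of the rows lay between -0.64 and 0.78, so the Ty1 differences were modest in size and alike in direction. The summed Ty1 level was 1.34 times the WT level and the summed Ty2 level 1.06 times. The ranges of the families did not overlap in this comparison.

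The largest differences in set2Δ belonged to 3 Ty1 copies. YGR161C-D on chromosome VII had 225, 349, 265 and 244 FPKM. YBR012W-B, given above as the lowest Ty1 copy, was higher in set2Δ by 0.60 on the log2 scale, against 0.63 for YGR161C-D. YOR142W-B on chromosome XV had 270.5, 403, 327 and 293 FPKM, a log2 difference of 0.57 in set2Δ. In these copies set2Δ stood well above both point mutants. The smallest Ty1 difference was that of YDR365W-B, at 0.30, with 341, 419, 400.2 and 381 FPKM. There the 3 mutants lay close together.

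In set2-Y149F, which keeps trimethylation, all 33 frames were again higher than in the WT, against 46% of all annotated rows. None reached 2-fold, which 3.57% of all rows passed upward and 2.07% downward. The Ty1 median was 0.26 on the log2 scale, with a narrow range from 0.18 to 0.29, and the Ty2 median was 0.10, from 0.08 to 0.10. The largest differences were those of YOL103W-B, YER138C and YML039W, each at 0.29. YOL103W-B had 371, 499.7, 455 and 430.4 FPKM, so that set2Δ was the highest of its strains. The smallest Ty1 differences, at 0.18, were those of YHR214C-B and YER160C. The summed Ty1 level was 1.19 times the WT level and the summed Ty2 level 1.07 times, with a median of -0.04 over all rows.

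In set2-Y236F, which lacks trimethylation, all 33 frames were higher than in the WT, against 47.5% of all annotated rows, and none reached 2-fold. Of all rows, 3.47% passed 2-fold upward and 1.87% downward. The Ty1 median was 0.13, from 0.05 to 0.22, and the Ty2 median was also 0.13, from 0.11 to 0.17. Here the families overlapped. With the strains scaled to the same median FPKM over all rows, the median of the 33 copies was 0.23 in place of 0.13. The largest differences were those of YBL005W-B at 0.22 (WT 246 FPKM, mutant 287 FPKM), YJR029W at 0.21 and YOL103W-B at 0.21. The smallest was YER160C at 0.05, with 218 and 226 FPKM. Summed levels were 1.11 times the WT level for Ty1 and 1.10 times for Ty2, and the median of all rows was -0.02.

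**Figure D2:**
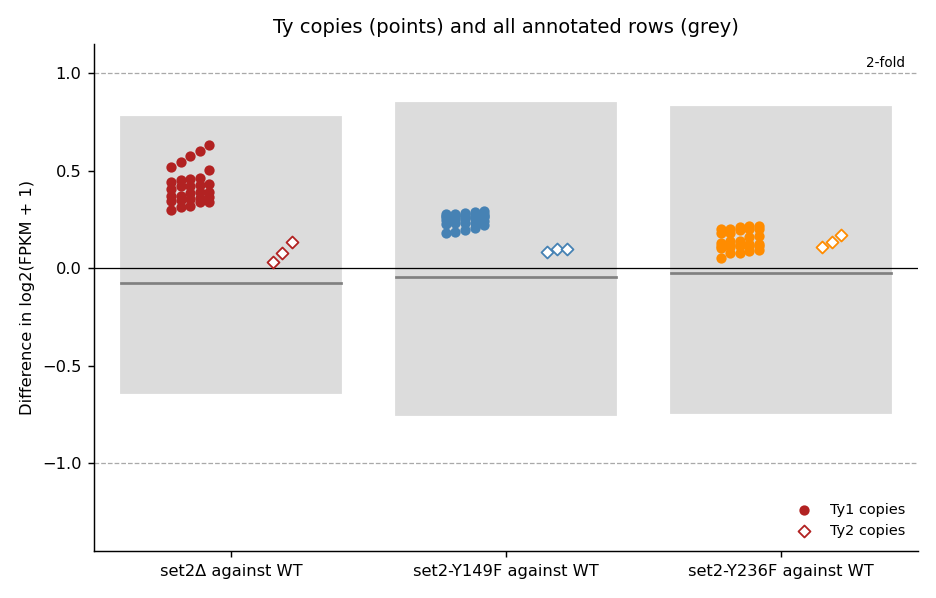
Difference from the WT in log2(FPKM + 1) for each Ty1 copy (filled circles) and Ty2 copy (open diamonds) in the 3 mutants, beside the range that holds 90% of all annotated rows (grey box) and their median (grey line). All points lie above 0 and below the 2-fold line, and the Ty1 medians are 0.40, 0.26 and 0.13.

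The order of the strains was the same in every Ty1 copy. All 30 stood highest in set2Δ, then in set2-Y149F, then in set2-Y236F and lowest in the WT, and none of the 3 Ty2 copies followed this order. YBL100W-B had 57.1, 58.3, 61.1 and 61.6 FPKM. YCL019W had 73.0, 80.3, 78.2 and 82.2 FPKM, and YDR034C-D had 74.6, 78.9, 79.2 and 81.9 FPKM. All 3 Ty2 copies were highest in set2-Y236F, and their levels spanned only a few FPKM. The 3 comparisons with the WT share its mean, and the copies share reads, so the repeated order is not counted as repeated evidence.

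Compared among themselves, the mutants share the vector but not its insert. LEU2 and SET2 RNA differed between set2Δ and both point mutants, as given above, and the part of this in the comparisons was not tested. The Ty1 copies were higher in set2Δ than in set2-Y149F by a median of 0.14, from 0.06 to 0.40, in 30 of 30 copies, against 48.6% of all annotated rows. They were higher in set2Δ than in set2-Y236F by a median of 0.24, from 0.14 to 0.52, in 30 of 30, against 47.5% of all rows. Between the point mutants, set2-Y149F was higher by a median of 0.11, from 0.01 to 0.17, in 30 of 30, against 48.9%. All 3 Ty2 copies were lower in set2Δ than in set2-Y236F, with a median of -0.05. They were also lower in set2-Y149F than its counterpart set2-Y236F, by a median of -0.05. No Ty copy reached 2-fold in any of these comparisons. Of all rows, 1.07% passed 2-fold upward and 1.76% downward for set2Δ against set2-Y149F, 1.07% and 1.91% for set2Δ against set2-Y236F, and 0.302% and 0.317% between the point mutants.

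The copies with the letters TGAAACA in the searched window included the 6 largest set2Δ differences. The rest of the reading frame was not searched, so a copy without the letters lacks them in this window only. These 8 copies were YBL005W-B, YBR012W-B, YGR161C-D, YHR214C-B, YML045W, YMR045C, YNL284C-B and YOR142W-B. Their set2Δ differences had a median of 0.53, from 0.37 to 0.63, against 0.39, from 0.30 to 0.46, in the 21 Ty1 copies without the letters. The medians of set2-Y149F were 0.25 and 0.26, and both medians of set2-Y236F were 0.13. The median level in the WT was 249 FPKM with the letters and 322 without. The WT ranges overlapped, from 198 to 312 FPKM with the letters and from 215 to 405 FPKM without. In set2Δ the medians were 359 and 419 FPKM. For the Tec1 letters the set2Δ medians were 0.43 in 20 copies with and 0.34 in 9 copies without. All 8 copies with TGAAACA are among these 20, so this split is not separate from the former. No test was made, since copies with the same LTR also share most of their sequence and reads, and whether the letters play a part in these values was not tested.

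**Figure D3:**
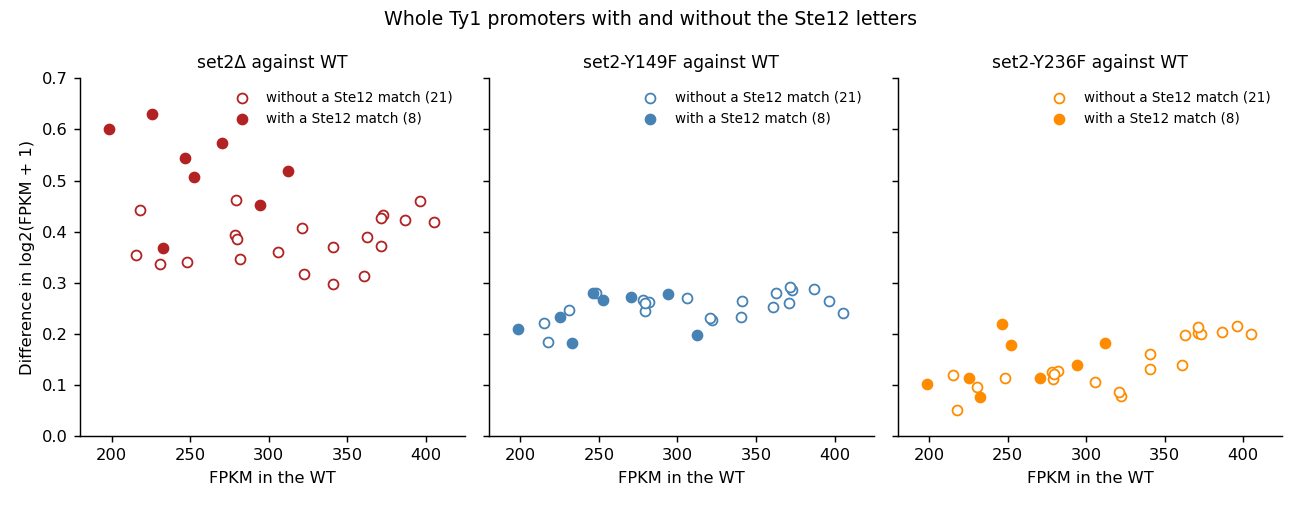
Difference from the WT in log2(FPKM + 1) against the WT level in FPKM for the 29 Ty1 copies whose LTR window was searched, filled where TGAAACA stands in the window. In set2Δ the 8 filled points range from 0.37 to 0.63 and the 21 open points from 0.30 to 0.46, and in both point mutants the sets overlap, set2-Y149F having medians of 0.25 and 0.26 and set2-Y236F of 0.13 in each set.

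YNL284C-B and YMR045C combine these letters with a larger share of windows found once. YNL284C-B had 312, 448, 358 and 354 FPKM. YMR045C had 252, 359, 304 and 286 FPKM. Their set2Δ differences were 0.52 and 0.51. The 5 copies with at least 10% of windows found once, including YNL054W-B at 0.35 and the Ty2 copy YBL100W-B at 0.03, had a median set2Δ difference of 0.51. Across the 28 whole Ty1 copies, the share of windows found once had a Pearson r of -0.38 with the WT level and of 0.24 with the set2Δ difference (Spearman rho 0.00), as descriptions over copies that share reads.

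**Figure D4:**
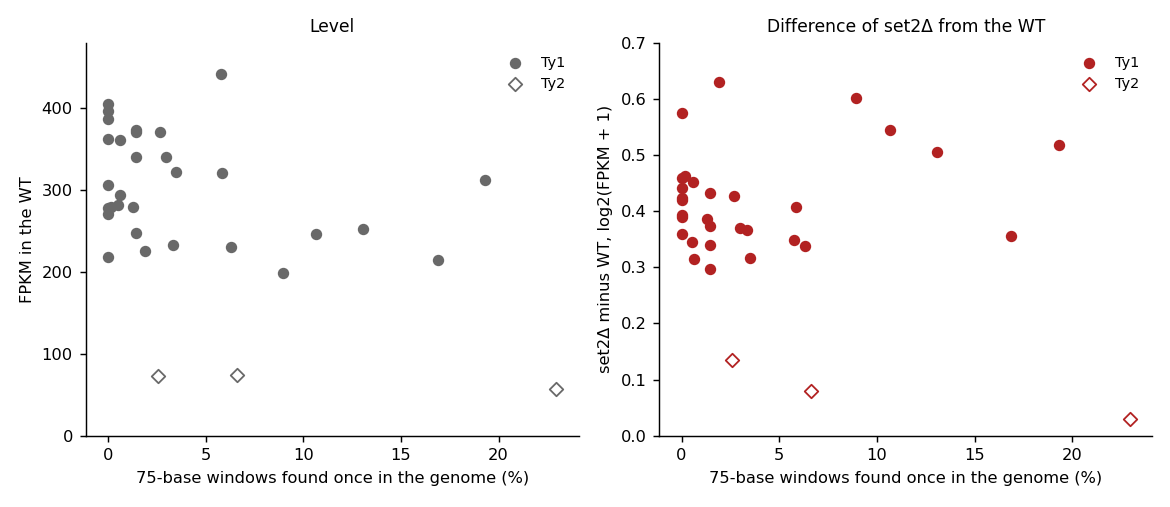
WT level in FPKM (left) and set2Δ minus WT difference in log2(FPKM + 1) (right) against the percent of 75-base windows of each copy found once in the genome, for 30 Ty1 copies (filled) and 3 Ty2 copies (open). Most copies lie under 10%, and the copies above 10% have set2Δ differences of 0.54, 0.51, 0.52 and 0.35 in Ty1 and of 0.03 in Ty2.

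Antisense transcripts of Ty1 followed another order of strains than the long sense frames. Transcripts from the strand opposite to a gene arise within gene bodies when Set2 is lost, and the table holds 777 of them. The authors picked these rows because they were higher in set2Δ, so a higher level in set2Δ is no independent result. Of the 777, 8 overlapped the reading frames, all in Ty1 copies, on the strand opposite to the frame and between base 782 and base 2126, which spans the later part of TYA and the start of TYB. The names of these rows stood in another order than the values, and were matched in alphabetical order. The correlation of FPKM times length with the deposited log2 CPM over the 777 rows was 0.90 in this order and -0.002 as printed.

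The antisense levels were low, between 0.159 and 1.19 FPKM in the WT. The range was 0.797 to 3.58 FPKM in set2Δ. For set2-Y149F it was 0.293 to 1.70 FPKM, and for set2-Y236F 0.0966 to 1.05 FPKM. In set2Δ all 8 were above the WT, as were 100% of the 777 by the authors' choice, and 3 of the 8, YGR161C-D, YNL284C-B and YPR158W-B, reached 2-fold on log2(FPKM + 1), against 83.5%. The added 1 is as large as these levels, and without it the set2Δ to WT ratios of the 8 were 2.66 to 15.8. In set2-Y149F all 8 were above the WT, against 96.9%. In set2-Y236F only YNL284C-B was above the WT and 7 were below it, whereas 3.35% of the 777 rows were below. The copies under these 8 rows share most of their sequence, so the rows can share reads and are not 8 separate observations. YNL284C-B is the copy among the 8 with the largest share of windows found once, 19.3%. The median ratios of the mutants to the WT were 3.68, 1.55 and 0.785 over the 8 rows, against 7.82, 3.17 and 3.20 over all 777.

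The antisense row of YGR161C-D, chrVII:821476-822234, plus strand, had 1.19, 3.58, 1.70 and 1.05 FPKM. That of YNL284C-B, chrXIV:100709-101439, plus strand, had 0.168, 2.65, 0.323 and 0.525 FPKM. It was the exception in set2-Y236F, and it had the largest ratio in set2Δ, 15.8. That of YER160C, chrV:496607-497221, plus strand, had 0.475, 1.49, 0.636 and 0.288 FPKM. The values were near or under 1 FPKM and no value per library was used, so these ratios are given without an error. The authors' deposited fold changes and p-values were not used. The antisense level was 0.0538% to 0.527% of the sense level of the same copy in the WT and 0.253% to 1.02% in set2Δ. Whether some of it came from reads of the sense strand was not tested.

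**Figure D5:**
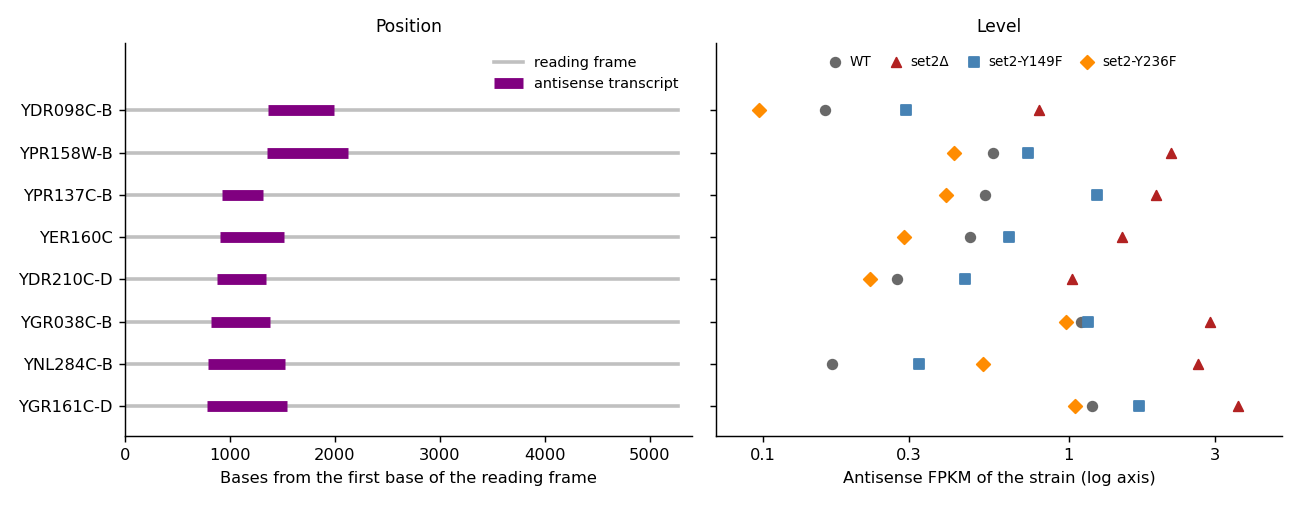
Left, position of the 8 antisense transcripts (purple) along the Ty1 reading frames (grey), in bases from the first base of each frame. Right, their FPKM in the 4 strains on a log axis, where set2Δ is highest in all 8 and set2-Y236F is lowest in 7, at 0.0966 to 1.05 FPKM.

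Other Ty rows of the table were compared from lists of all annotated Ty frames. Of the 33 TYA frames of the same elements, only YAR010C had a row, with 299.8, 392, 376 and 264 FPKM. Its set2-Y236F value was thus below the WT. The TYA-only Ty1 frames YLR256W-A (312, 392, 382 and 277 FPKM) and YDR170W-A (46.6, 72.9, 67.9 and 46.1 FPKM) were also above the WT in set2Δ and set2-Y149F and below it in set2-Y236F. In these 3 frames, which hold no TYB, the log2 differences in set2-Y236F were -0.18, -0.17 and -0.02. The strains thus stood in the order seen in 7 of the 8 antisense rows, and not in that of the long Ty1 frames. Their windows found once came to 0%, 2.56% and 58.4%. YAR010C and YLR256W-A thus share nearly all their sequence with other copies, and their levels are not separate measurements. A further Ty1 frame, YLR035C-A, had 276, 385, 316 and 293 FPKM and kept the order of the long frames. The 6 other Ty2 frames had median differences of 0.06, 0.07 and 0.12 from the WT, mutants in the same order, close to those of the 3 long Ty2 copies.

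The rarer Ty3 and Ty4 families had 5 rows at low levels, and 4 of the 5 were higher than the WT in each mutant. YGR109W-B, the Gag-Pol frame of Ty3, which inserts at the start sites of tRNA genes, had 14.2, 27.1, 23.9 and 19.9 FPKM. Its strains stood in the order seen in the Ty1 copies, with log2 differences of 0.89, 0.71 and 0.46. The Ty4 frames YHL009W-B (4.07 and 8.37 FPKM in the WT and set2Δ) and YJL113W (5.11 and 10.3 FPKM) differed by 0.89 each in set2Δ. The exception was YJL114W, a Ty4 frame, which had 2.02, 0.919, 1.95 and 1.55 FPKM. None of the 5 reached 2-fold on log2(FPKM + 1), where the added 1 is large beside such levels. With 0.1 added instead, YHL009W-B (1.02), YIL080W (1.17) and YJL114W (-1.06) passed 2-fold in set2Δ.

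Genes with known roles in Ty1 expression seldom reached 2-fold, as was true of all annotated rows. Of 22 transcription activators, none reached 2-fold in any mutant. Of all rows, 2.88%, 3.57% and 3.47% passed it upward in the 3 mutants and 1.19%, 2.07% and 1.87% downward. In a list of 22, finding none is near these shares. STE12, the filamentation and mating factor, had 36.4, 32.6, 25.0 and 18.9 FPKM, and TEC1, its partner, given because its letters were searched, had 140.3, 126, 167 and 103 FPKM. MCM1, a factor of mating-type genes with a known site in Ty1, was the activator with the largest difference in set2Δ, 0.47, with 122, 169, 175 and 147 FPKM. SPT7, a subunit of the coactivator SAGA, followed at 0.45. In set2-Y149F the largest were RAP1, a factor of ribosomal protein genes and telomeres, at -0.74, and GCN4, the activator of amino acid synthesis, at -0.69. In set2-Y236F they were STE12 at -0.91 and RAP1 at -0.62. The medians of the 22 were -0.06, -0.06 and -0.20 in the 3 mutants, against -0.07, -0.04 and -0.02 over all rows.

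Of 20 chromatin and silencing factors none reached 2-fold, again near the shares of all rows given above. The medians of the 20 were -0.12, -0.22 and -0.19 in the 3 mutants. The largest set2Δ difference in the list was that of ASF1, a histone chaperone, with 87.6, 62.5, 69.4 and 59.4 FPKM. HIR2, a subunit of the HIR histone chaperone, had 21.0, 19.4, 14.5 and 13.9 FPKM. SPT5, an elongation factor, differed by -0.45 in set2Δ and by -0.56 in set2-Y236F, as HIR2 did in the latter. BRE1, the ubiquitin ligase of histone H2B, and SPT4, the partner of Spt5, had the largest set2-Y149F differences, -0.60 and -0.56. Of 19 measured host factors of other kinds, which act on Ty1 RNA, its signalling or its insertion, 1 reached 2-fold, in set2-Y149F, where 2.07% of all rows were 2-fold lower. RPO31, the largest subunit of RNA polymerase III, had 20.4, 18.1, 9.55 and 11.1 FPKM, and its log2 difference was -1.02 in set2-Y149F. This difference was under 2-fold with a pseudocount of 10, at -0.64, and with the strains scaled to the same median, at -0.94. FUS3, the mating kinase that restrains Ty1, had 56.8, 33.4, 46.7 and 39.5 FPKM, and KSS1, the filamentation kinase, had 42.0, 25.1, 27.1 and 27.9 FPKM. PAT1, a decapping activator, had the largest difference of this list in set2-Y236F, -0.87.

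The genes beside the elements were mixed in direction. A tRNA gene lay within 500 bp of 23 of the 33 elements and within 1000 bp of 26, with a median distance of 193 bp. The nearest measured gene on each side in the reference genome gave 62 genes, at a median distance of 763.5 bp. They include LEU2, beside the Ty2 copy YCL019W. LEU2 is deleted in BY4741 and is the marker of the vector, so its values cannot be tied to this element. Of the 62 genes, 20, 27 and 35 were higher than the WT in the 3 mutants. This is 32.3%, 43.5% and 56.5%, against 40.2%, 46% and 47.5% of all annotated rows. The medians of the 62 were -0.10, -0.02 and 0.05 on the log2 scale. In set2Δ none was 2-fold higher and 1, YHR214W beside YHR214C-B, was 2-fold lower, at 0.894 FPKM against 5.54 FPKM. Of all annotated rows, 2.88% were 2-fold higher and 1.19% were 2-fold lower in set2Δ. In set2-Y149F, YBL100W-C and CPP3, beside the Ty2 copies YBL100W-B and YDR034C-D, were 2-fold higher. These 2 of 62 are near the share of all rows, 3.57%. YBL100W-C was at a low level, 1.14 FPKM in the WT and 4.20 FPKM in set2-Y149F. In set2-Y236F, YBL100W-C, CPP3, YGR161W-C and THI21 were 2-fold higher, and YHR214W was 2-fold lower, against 3.47% and 1.87% of all rows. These neighbours were named after their values were seen.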

How the data were processed

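Polyadenylated RNA of 4 strains was sequenced as 75-base single-end reads after a dUTP strand-specific preparation. Per the submitters' processing notes, the build was sacCer3, and TopHat2 2.1.1, Trimmomatic 0.38, HTSeq 0.13.5, Cuffdiff, Cufflinks 2.2.1, bedtools 2.29.2 and SAMtools 1.10 were used. The authors deposited 1 mean FPKM value per strain for 6632 annotated and 777 antisense rows. Levels of antisense transcripts were computed with Cuffdiff. The program that gave the FPKM of annotated rows, and the treatment of reads that match several places, are not given in the sources used here. For antisense rows, the deposited log2 CPM was used only to check the order of names. The deposited fold changes and p-values of the authors' comparisons, and a sheet of mean scaled counts, were not used.

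Levels were compared as log2(FPKM + 1), and a difference was described at 2-fold. Since no value per library was used, no planned test was run, and the depth per library is unknown. Each strain was labelled with 3 libraries, and the study describes antisense levels as coming from 3 independent experiments. Window counts, identities (edlib 1.3.9.post1) and motifs were computed from the RefSeq R64 genome with Python 3.11.15, numpy 2.4.6, pandas 2.3.3 and scipy 1.17.1, and figures with matplotlib 3.10.9. The window counter and the calls were tested on simulated data. Alternatives were pseudocounts of 0.1 and 10, a mean of at least 1 FPKM, strains scaled to the same median, rows in RefSeq, whole frames (at least 5200 bp in 2 joined parts) and frames with at least 10% of windows found once. Every member could be named. Otherwise, the 3 copies with the largest differences, the highest and lowest copies, and up to 4 genes per list past 2-fold (or the 2 with the largest difference) were named. The members and lists were chosen with earlier results of these data known.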

Additional observations from a re-analysis of the deposited data

How the results depend on the processing

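No paired analysis was possible because the columns hold 1 mean per strain and no replicate values, and leaving out a replicate in turn was not run for the same reason. The pseudocounts were not applied to summed levels, which need none. All 33 copies (or all that were kept) stayed above the WT in each mutant, and none reached 2-fold, under every alternative. Scaling the strains to the same median shifted the log2 values of the 3 mutants by 0.09, 0.08 and 0.10, and then 51.6%, 53.5% and 56.5% of all annotated rows were higher than the WT in place of 40.2%, 46% and 47.5%. With it, the median difference of the 33 copies was 0.34 in set2-Y149F (0.26 unscaled) and 0.23 in set2-Y236F (0.13 unscaled), and the log2 ratio of summed levels was 0.33 (0.25) and 0.24 (0.15). Among the 5 copies with at least 10% of windows found once, the median was 0.18 in set2-Y236F, and 0.24 in place of 0.13 for set2Δ against set2-Y149F, a comparison whose alternatives were chosen after seeing the data. RPO31 in set2-Y149F lost its 2-fold difference with a pseudocount of 10 (-0.64) and with scaled strains (-0.94). With a pseudocount of 0.1, YHL009W-B (1.02), YIL080W (1.17) and YJL114W (-1.06) passed 2-fold in set2Δ. Strain means carry no error here, so a difference as small as those of the Ty copies cannot be set against the spread between libraries.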
